A study of Mus musculus with 24 samples.

Results

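The genes described here make, desaturate and lengthen fatty acids. They are 10 genes: the desaturases Scd1, Scd2, Fads1, Fads2 and Fads3, the elongases Elovl1, Elovl5 and Elovl6, and 2 enzymes that are neither but supply their substrate, Acaca and Fasn. They were taken as the probe sets whose only listed gene was one of these, with the brightest probe set kept per gene, and all 10 were found among the 19938 genes measured. They were chosen by their intensities at day 4, through the dose effect in each genotype, so the values at day 4 are a description without tests. The day 0 and day 2 arrays do not enter the dose effect, and comparisons between them were tested, although their levels are also named in that rule. The genes and contrasts were chosen with earlier results of these data known, so these tests cannot be taken as independent of that choice. The shares of the 10 genes called in these tests, set beside those of all genes, are therefore a description.

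Expression was measured on 24 mouse gene arrays, 3 for each of 8 groups of CD4 T cells from 129SvEv mice. Wild-type (WT) cells and cells of mice lacking Batf and Batf3 (labelled Batf1/3DKO, here DKO) were each taken in 4 states. These were naive and unstimulated (day 0), cultured for 2 days under TH2-polarising conditions (day 2), and cultured for 4 days at one of 2 doses of anti-CD3e, 2.2 or 10 ng/ml. Anti-CD3e is an antibody that stimulates cells through the T cell receptor complex. All cultured cells also received anti-CD28 held on plate-bound anti-hamster IgG. The sample labels give no anti-CD3e dose for day 2, no mouse of origin for the 3 replicates, and no way in which the naive cells were isolated. In the main fit, the spread behind every p-value is that between the 3 samples of a group, pooled over all 8 groups. It thus includes the day 4 arrays. In any fit this spread may be technical only. The DKO cells lack both factors in every state, from the naive cell on, as far as the labels tell. BATF and BATF3 are AP-1 family factors that bind DNA jointly with IRF4 at composite AICE sites, and the series asked how graded receptor signals are read through those sites.

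Acaca makes malonyl-CoA and Fasn builds palmitate from it. Scd1 and Scd2 put the first double bond into saturated fatty acids, which gives oleate and palmitoleate. Fads2 and Fads1 act in turn on the essential fatty acids to give long polyunsaturated ones such as arachidonate, with Elovl5 lengthening the chain between them. Elovl6 lengthens palmitate, Elovl1 makes very long saturated chains, and Fads3 acts on sphingoid bases. Many of these genes are classical targets of the SREBP factors, which SCAP carries out of the endoplasmic reticulum and INSIG proteins hold back. T cells that leave rest to grow and divide are known to switch on lipid synthesis for new membrane.

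Promoters are shown because many of these genes were high and low in the same groups and because the factors named above have known DNA motifs. RefSeq promoters (GRCm38.p6, windows of 300 bases) were matched by symbol for 7 of the 10 genes, in 8 windows since Elovl1 has 2: Acaca, Fasn, Fads2, Fads3, Elovl1, Elovl5 and Elovl6. The 250 bases before the annotated start are printed 5′ to 3′ on the gene's strand for Fasn and Elovl5, which hold the NF-Y letters, and for Fads2, which responded most among the genes with a window. Capitals mark every match on either strand to CCAAT (the NF-Y box), CACGTG (the E-box) and GGGCGG (the GC box).
Fasn: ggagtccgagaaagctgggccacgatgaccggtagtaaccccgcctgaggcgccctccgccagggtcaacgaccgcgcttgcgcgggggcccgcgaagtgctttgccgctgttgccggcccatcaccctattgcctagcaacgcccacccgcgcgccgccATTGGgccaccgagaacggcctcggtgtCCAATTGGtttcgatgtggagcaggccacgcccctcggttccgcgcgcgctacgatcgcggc
Elovl5: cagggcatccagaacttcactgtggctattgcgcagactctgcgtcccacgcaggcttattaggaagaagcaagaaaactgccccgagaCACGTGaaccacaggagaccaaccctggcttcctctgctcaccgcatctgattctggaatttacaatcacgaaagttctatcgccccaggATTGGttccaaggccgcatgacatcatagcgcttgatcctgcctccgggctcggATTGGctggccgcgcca
Fads2: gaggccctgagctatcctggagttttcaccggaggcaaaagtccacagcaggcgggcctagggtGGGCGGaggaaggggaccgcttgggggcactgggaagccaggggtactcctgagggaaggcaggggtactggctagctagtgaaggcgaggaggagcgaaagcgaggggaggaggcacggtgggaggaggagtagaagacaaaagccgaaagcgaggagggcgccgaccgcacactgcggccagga
The Fasn stretch lies at chr11:120824548-120824797 on the minus strand, the Elovl5 stretch at chr9:77917115-77917364 on the plus strand and the Fads2 stretch at chr19:10101504-10101753 on the minus strand. The NF-Y letters CCAAT stood in 4 of the 8 windows, those of 4 of the 7 genes (Elovl1, Elovl5, Fads3 and Fasn), and in 37.4% of the 32851 promoters in the table. In Fasn there were 3 such matches, and the second and the third share bases. The GC box letters stood in 4 of the 8 windows, from 3 of the 7 genes (Elovl1 in both windows, Fads2 and Fads3), against 35.7% of all promoters. The E-box letters stood in 1 of the 8 windows, that of Elovl5, against 7.15% of all promoters. The sterol regulatory element was searched as TCACNCCAC and was matched in 0 of the 7 genes and in 1.24% of all promoters. The AP-1 letters TGANTCA, searched as the BATF part of an AICE site, were matched in 0 of the 7 genes and in 7.81% of all promoters. An AICE site, with the IRF letters joined to the AP-1 letters or spaced from them, was matched in 0 of the 7 genes, and in 0.125% and 0.119% of all promoters. A match is a run of letters in this window and was not tied to binding in any sample.

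Batf checked the labels. Its intensity was 135 ± 20.9 (SD, n = 3, as for each ± on intensities below) in naive WT cells and 722 ± 137 at day 2, then 1509 ± 125 with the low and 1595 ± 99.8 with the high dose, and in the 4 DKO groups it was 31.2 ± 3.16, 32.5 ± 5.12, 32.2 ± 4.99 and 46.5 ± 4.87. Intensity here is the authors' normalized array signal on a linear scale, and the gene at the middle of the array had 32.2, so a level near or below that may be background. Batf3 stood above that middle in WT cells mainly at 10 ng/ml, at 146 ± 32.8 against 29.8 ± 4.57 in DKO cells at that dose. Irf4 rose with activation in both genotypes, to 1123 ± 25.7 in WT and 707 ± 84.8 in DKO cells at day 2. All 5 T cell markers checked were above the middle of the array in every group, and all 6 myeloid and 3 of 4 CD8 and NK cell markers were at or below it. Of 6 adipocyte and hepatocyte markers, 4 or 5 were at or below it in every group. The 3 B cell markers summed to 34.2 to 75.8 in the other groups and to 90.1 to 137 in DKO cells at 10 ng/ml, which is given again beside that group. Levels of 1 gene cannot be set against those of another on these arrays, so every comparison below is within a gene. In a culture, more RNA per cell and more cells expressing a gene cannot be told apart.

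**Figure D1:**
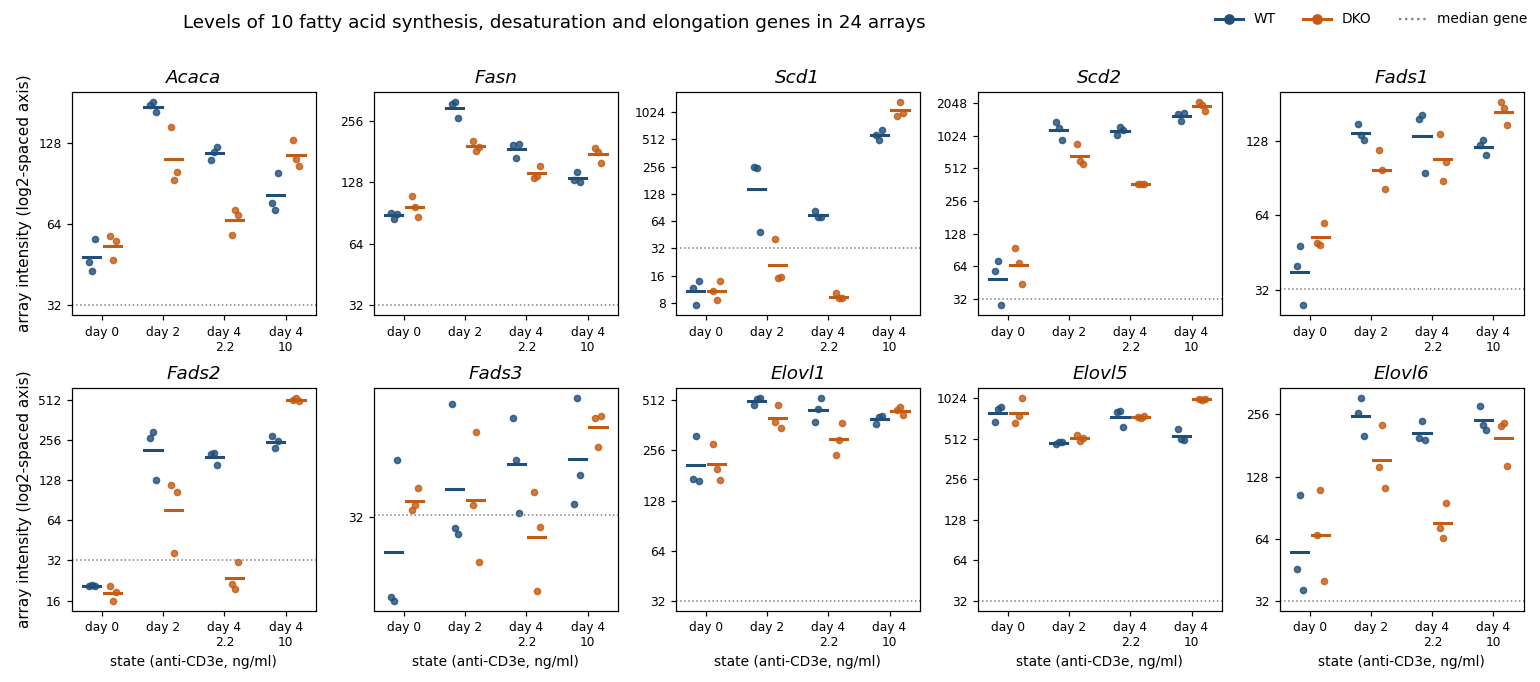
Array intensity (vertical, log2-spaced axis, a scale of its own in each panel) of the 10 genes in the 4 states (horizontal) for WT and DKO cells; points are single arrays, bars are geometric means of 3 arrays, and the dotted line is the gene at the middle of the array, 32.2. In DKO cells Scd1 and Fads2 sit near the bottom of their panels at 2.2 ng/ml and at the top at 10 ng/ml.

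Acaca and Fasn, which start fatty acid synthesis, were both induced at day 2 and were lower in DKO than in WT cells at that time. Acaca, the gate enzyme that makes malonyl-CoA, read 46.2, 43.0 and 56.3 in naive WT cells and 176, 180 and 166 at day 2. In DKO cells it read 57.9, 47.1 and 55.4 at day 0 and 146, 93.2 and 99.8 at day 2. The naive groups overlapped, and every DKO array at day 2 lay below every WT array at day 2. At day 4 the order depended on dose. With 2.2 ng/ml Acaca read 110, 119 and 124 in WT and 58.3, 72.2 and 68.8 in DKO cells. With 10 ng/ml it read 76.6, 72.4 and 98.8 in WT and 130, 111 and 105 in DKO cells. The WT arrays were thus lower at the higher dose and the DKO arrays higher, with no overlap within either genotype. Fasn, the multi-domain synthase, read 91.0, 84.3 and 89.9 in naive WT cells and 310, 315 and 264 at day 2. In WT cells at day 4 it read 194, 168 and 197 with the low dose and 131, 143 and 128 with the high dose. In DKO cells it read 110, 96.6 and 86.8, then 205, 183 and 190, then 135, 138 and 154, and with the high dose 188, 179 and 160. Both genotypes were highest at day 2, and at day 4 the dose moved them in opposite directions. Acaca had a second, dimmer probe set whose difference had the same sign for day 2, for dose in each genotype and for genotype at day 2 and at each dose, while for genotype in naive cells its log2 difference was -0.20 ± 0.26 (SE) against 0.14 ± 0.16 for the probe set used.

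The stearoyl-CoA desaturases had the widest measured ranges of the 10 genes. Scd1 was at 11.8, 7.68 and 13.9 in naive WT cells and at 10.9, 8.58 and 13.9 in naive DKO cells, all below the middle of the array. At day 2 the WT arrays read 256, 245 and 48.7 and the DKO arrays 40.2, 15 and 15.6. The third WT array stood apart from the other two and still lay above all DKO arrays. At 2.2 ng/ml Scd1 read 82.3, 71.6 and 71.9 in WT cells and 10.3, 9.08 and 9.04 in DKO cells, so the DKO cells were at the level of naive cells. At 10 ng/ml it read 566, 505 and 649 in WT and 936, 1305 and 989 in DKO cells, so the order of the genotypes was turned, with no overlap at either dose. From the lowest group mean to the highest, Scd1 spanned 113-fold, and because the low end may be background this may understate the change. In order, the DKO cells at 2.2 ng/ml and both naive groups overlapped, DKO cells at day 2 came next, WT cells at 2.2 ng/ml and at day 2 overlapped, and WT and then DKO cells at 10 ng/ml stood above.

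Scd2, the isoform that is widely expressed outside the liver, was measured well above the middle of the array in all cultured cells. It read 57.4, 72.1 and 28.3 in naive WT cells and 1383, 1204 and 937 at day 2. The naive DKO arrays read 93.9, 69.3 and 44.1, and at day 2 the DKO arrays read 863, 600 and 556. The genotypes overlapped in naive cells and did not at day 2. With the low dose Scd2 read 1035, 1222 and 1161 in WT cells and 369, 366 and 366 in DKO cells, and at 10 ng/ml it read 1641, 1394 and 1660 in WT and 2076, 1957 and 1714 in DKO cells. As for Scd1, DKO cells were below WT cells at the low dose and above them at the high dose, but Scd2 in DKO cells at 2.2 ng/ml stayed above all naive arrays. Scd1 and Scd2 are close paralogs and their probes may share signal. Their relatives Scd3 and Scd4 had group means of 10.1 to 14.8 and 8.89 to 12.1, below the middle of the array in all 8 groups.

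Of the 3 Fads genes, Fads2 had the group means most like those of Scd1 (Pearson's r = 0.943 over the 8 group means, against 0.888 for Fads3 and 0.728 for Fads1, given as a description). Fads2, which takes the first step of the polyunsaturated route, read 20.5, 20.9 and 20.7 in naive WT cells and 265, 295 and 129 at day 2. The naive DKO arrays read 20.6, 16.0 and 18.5 and the day 2 DKO arrays 118, 36.1 and 105. The third WT array at day 2 and the second DKO array were the low ones of their groups. With 2.2 ng/ml the WT arrays read 202, 205 and 167 and the DKO arrays 21.4, 19.5 and 30.9, below the middle of the array. At 10 ng/ml the WT arrays read 277, 224 and 250 and the DKO arrays 511, 527 and 504. The DKO cells thus went from the naive level at the low dose to above all WT arrays at the high dose.

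Fads1, which acts after Fads2, moved less. Its means were 38.6 ± 10.1 in naive WT cells, 137 ± 10.5 at day 2, 138 ± 37.1 with the low dose and 121 ± 8.0 with the high dose. The DKO means were 52.5 ± 6.21, 99.1 ± 18.0, 110 ± 24.2 and 168 ± 18.0. In WT cells the 2 doses overlapped, and in DKO cells the 3 arrays at 10 ng/ml were above those at 2.2 ng/ml. Fads3 stayed close to the middle of the array throughout, with single arrays from 24.9 to 45.6 and a span of 1.45-fold between group means. Its lack of a clear change is therefore bounded by a dim signal.

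The elongases did not share one pattern. Elovl6, which lengthens the palmitate that Fasn makes, read 45.6, 104 and 36 in naive WT cells, 261, 306 and 201 at day 2, 198, 237 and 192 with the low dose and 281, 227 and 216 with the high dose. In DKO cells it read 67.0, 110 and 40.1, then 143, 227 and 112, then 72.2, 64.8 and 95.9, and with the high dose 224, 233 and 144. The second array of each naive group was the high one. With the low dose each DKO array was below each WT array, and with the high dose the genotypes overlapped. Elovl1 was at 217 ± 81.5 in naive WT cells, 508 ± 26 at day 2, 453 ± 71.7 with the low dose and 394 ± 21.8 with the high dose, against 216 ± 57.2, 402 ± 68.1, 304 ± 67.0 and 442 ± 24.1 in DKO cells. Its WT values overlapped between doses and its DKO values did not.

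Elovl5, the elongase of the polyunsaturated route, was the 1 gene of the 10 that was lower at day 2 than in naive cells. It read 680, 851 and 882 in naive WT cells and 470, 485 and 486 at day 2, with 670, 753 and 1028 and then 550, 494 and 516 in DKO cells. With the low dose at day 4 it read 809, 821 and 625 in WT and 742, 739 and 758 in DKO cells, and all 4 of these low-dose and naive groups overlapped. At 10 ng/ml it read 611, 514 and 505 in WT and 1010, 998 and 1022 in DKO cells. The genotypes were thus alike within their spread at the low dose and apart at the high dose.

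Induction from day 0 to day 2 in WT cells was tested with limma over all 19938 genes (moderated test, Benjamini-Hochberg adjusted p under 0.05 called). Scd1, Scd2, Fads1, Fads2, Elovl1, Elovl6, Fasn and Acaca rose, 8 of the 10, where 19.7% of all genes rose. Elovl5 fell by 0.73 ± 0.14 on the log2 scale (adjusted p = 0.000144), where 20.5% of all genes fell. Scd2 rose 23.7-fold (95% confidence interval 16.4 to 34.3, adjusted p = 5.23e-13). Scd1 rose 13.5-fold (7.40 to 24.5) and Fads2 10.5-fold (6.75 to 16.2), both from naive levels that may be background, so these folds are not ranked. Without the low WT array at day 2 (replicate 3) the Scd1 log2 difference was 4.54 ± 0.30 in place of 3.75 ± 0.42. The other 5 rose between 2.44-fold (Elovl1) and 4.54-fold (Elovl6). Fads3 differed by 0.28 ± 0.18 on the log2 scale and did not pass (adjusted p = 0.237), and it passed without the high naive WT array (replicate 3, adjusted p = 0.0489). The median log2 difference of the 10 genes was 1.86, against -0.11 over all genes.

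In DKO cells all 10 fitted day 2 differences were nearer to 0 than in WT cells, and the test of that difference follows. Scd2, Fads1, Fads2, Elovl1, Elovl6, Fasn and Acaca rose, 7 of the 10, where 15.3% of all genes rose, and Elovl5 fell by 0.63 ± 0.14 on the log2 scale (adjusted p = 0.00100), where 13.3% fell. Scd2 rose 10.0-fold (6.92 to 14.5), Fads2 4.18-fold (2.70 to 6.48) and Fasn 1.97-fold (1.68 to 2.33). Scd1 had a log2 difference of 0.95 ± 0.42 and did not pass (adjusted p = 0.0967), although its 3 day 2 arrays lay above its 3 naive arrays. Elovl6 rose 2.31-fold (adjusted p = 0.00687), but without the third naive or the second day 2 DKO array its adjusted p was 0.0755 or 0.0618. The median log2 difference was 0.97, against -0.01 over all genes.

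**Figure D2:**
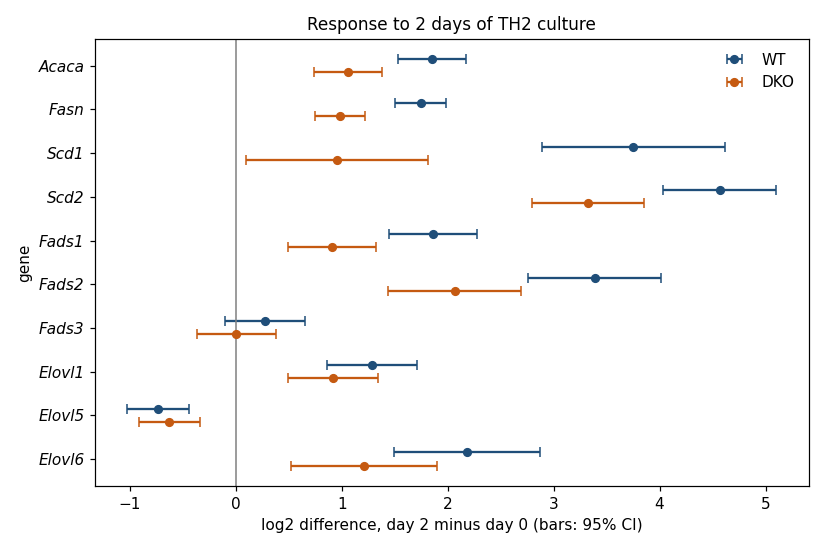
Log2 difference between day 2 and day 0 (horizontal) for each of the 10 genes (vertical) in WT and in DKO cells; points are fitted differences of 3 against 3 arrays and bars are 95% confidence intervals. Scd1 is at 3.75 in WT and 0.95 in DKO cells, and Elovl5 lies below 0 in both.

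The difference between the genotypes' day 2 responses was tested as an interaction. It was called for Scd1, whose response in DKO cells was lower by 2.80 ± 0.59 on the log2 scale (adjusted p = 0.0182), and for Fasn, lower by 0.76 ± 0.16 (adjusted p = 0.0192). Of all genes, 0.742% were called lower in this contrast. The other 8 genes did not pass. Scd2 had an interaction of -1.24 ± 0.36 (adjusted p = 0.104), Fads2 of -1.32 ± 0.43 (adjusted p = 0.151), Fads1 of -0.96 ± 0.28 (adjusted p = 0.107), Acaca of -0.79 ± 0.22 (adjusted p = 0.0857) and Elovl6 of -0.98 ± 0.47 (adjusted p = 0.340). For Elovl5 it was 0.11 ± 0.20, with a 95% confidence interval of -0.30 to 0.52. Both calls were lost in a fit of the compared groups alone (adjusted p = 0.0887 for Scd1 and 0.0638 for Fasn), and the Fasn call also after a further cyclic loess or quantile normalization (0.0599 and 0.0721). The Scd1 call was lost without the first or the second WT or the second or the third DKO array at day 2 (adjusted p of 0.0532 to 0.0658), and the Fasn call without either of those WT arrays or the first naive DKO array (0.0529 to 0.0630), while without the low WT array at day 2 (replicate 3) the Scd1 difference was -3.58 ± 0.40 (adjusted p = 2.24e-05). Of the genes that did not pass, Fads2 did so without that array (adjusted p = 0.0496), Scd2 without the second naive WT or the third naive DKO array (0.0356 and 0.0354) and Acaca without the first DKO array at day 2 (0.0147).

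Between genotypes within a state, the naive cells gave no call. Of the 10 genes 0 passed limma's test at day 0 and 1, Fads1, had an unadjusted p under 0.05, where 0.0652% of all genes were called in either direction. At day 2, Scd1, Fads2, Fasn and Acaca were lower in DKO cells, 4 of the 10, where 1.68% of all genes were called lower. Scd1 was lower by 6.87-fold (3.78 to 12.5, adjusted p = 0.000214) and Fads2 by 2.83-fold (1.83 to 4.38, adjusted p = 0.00570). Fasn was lower by 1.54-fold (1.31 to 1.81, adjusted p = 0.00216) and Acaca by 1.57-fold (1.25 to 1.96, adjusted p = 0.0226). The arrays of the genotypes did not overlap in any of these 4 genes. They also did not overlap in Scd2 and Fads1 (lower in DKO cells) and in Elovl5 (higher), which were not called. The share of all genes without overlap was not counted for this contrast, so nothing is read from the lack of overlap. Markers were called higher in DKO cells in the same contrast, where 1.03% of all genes were: 2 of the 5 T cell markers, Cd3d and Cd3g (by 0.49 ± 0.13 and 0.68 ± 0.14 on the log2 scale), and 1 of the 3 B cell markers, Cd79b (by 0.73 ± 0.18, from 23.2 to 38.8). The part of these markers in the result was not tested. Scd2 had a log2 difference of -0.81 ± 0.26 (adjusted p = 0.0965) and Elovl6 of -0.72 ± 0.33 (adjusted p = 0.288). Without the low WT array (replicate 3) the Scd1 log2 difference was -3.57 ± 0.30. Without the second WT array at day 2 the Fads2 call was lost (adjusted p = 0.0554), as it and the Acaca call were in a fit of the compared groups alone (0.113 and 0.0852). The Acaca call was also lost without the first or the second WT array or the second or the third DKO array (adjusted p of 0.0796 to 0.135), after quantile normalization (0.0725) and in the second Acaca probe set (-0.53 ± 0.26, adjusted p = 0.310).

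At day 4, in WT cells, the dose divided the genes. All 3 arrays at 10 ng/ml lay above all 3 at 2.2 ng/ml for Scd1, Scd2 and Fads2, where 11.7% of all genes had such higher arrays. All 3 lay below for Elovl5, Fasn and Acaca, where 15.3% had such lower arrays. Since the dose effect chose the genes, nothing is read from these shares or those below for day 4. The log2 differences between doses (3 against 3 arrays, ± SE of the fit) were 2.92 ± 0.42 for Scd1, 0.46 ± 0.26 for Scd2, 0.39 ± 0.31 for Fads2, -0.46 ± 0.14 for Elovl5, -0.47 ± 0.11 for Fasn and -0.52 ± 0.16 for Acaca. The spread behind these SEs is pooled over all 8 groups and is not that of the day 4 arrays alone. Fads1, Fads3, Elovl1 and Elovl6 overlapped between doses. The median over the 10 genes was -0.06, against -0.04 over all genes, and it was 0.04 without the first WT array at 2.2 ng/ml and 0.00868 without the second.

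In DKO cells all 10 genes were higher at 10 ng/ml with no overlap between the arrays of the doses, where 13.1% of all genes were. The log2 difference was 6.82 ± 0.42 for Scd1, 4.45 ± 0.31 for Fads2, 2.38 ± 0.26 for Scd2, 1.35 ± 0.33 for Elovl6 and 0.80 ± 0.16 for Acaca. It was smallest for Fasn, at 0.30 ± 0.11. Scd1 and Fads2 started from levels below the middle of the array, so their folds, 113 and 21.9, may understate the change. The median was 0.72, against -0.01 over all genes. The summed B cell markers were 90.1 to 137 in these arrays at 10 ng/ml and 66.1 to 75.8 at 2.2 ng/ml, which came from Cd79b, while Cd79a and Ms4a1 were below the middle of the array and lower at 10 ng/ml (means of 11.4 against 20.7 and of 6.17 against 7.80). The 4 CD8 and NK cell markers summed to 83.5 to 124 at 10 ng/ml and to 62.9 to 81.1 at 2.2 ng/ml, and 2 of them, Cd8b1 and Klrb1c, were higher with no overlap. The part of these markers in the result was not tested.

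**Figure D3:**
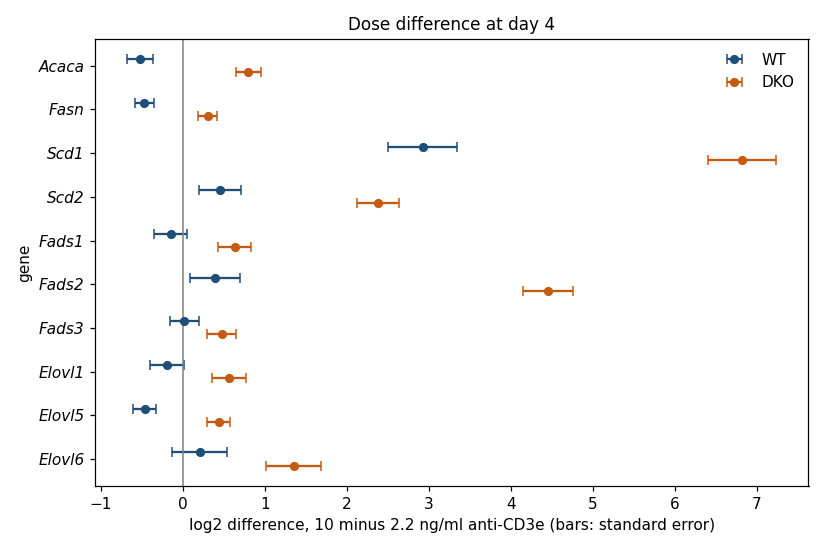
Log2 difference between 10 and 2.2 ng/ml of anti-CD3e at day 4 (horizontal) for each of the 10 genes (vertical) in WT and in DKO cells. Points are fitted differences of 3 against 3 arrays, and bars are standard errors of the fit, with the spread pooled over all 8 groups. All 10 DKO points lie above 0, and the WT points of Acaca, Fasn and Elovl5 lie below it.

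Set side by side at 2.2 ng/ml, 7 of the 10 genes had all DKO arrays below all WT arrays, where 8.18% of all genes did. These were Scd1, Scd2, Fads2, Elovl1, Elovl6, Fasn and Acaca. At 10 ng/ml, 8 genes had all DKO arrays above all WT arrays, where 15.8% did, and the exceptions were Fads3 and Elovl6. The dose difference in DKO cells exceeded that in WT cells by 4.06 ± 0.43 on the log2 scale for Fads2, 3.89 ± 0.59 for Scd1, 1.92 ± 0.36 for Scd2 and 1.32 ± 0.22 for Acaca. For the other 6 genes the excess was between 0.45 (Fads3) and 1.15 (Elovl6).

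The genes whose group means ran most like those of the 3 widest-ranging genes were found by Pearson's r over the 8 group means, among 9357 genes. For Scd1 these were Idh1 (0.977), Sirt3 (0.973) and Sars (0.970). For Scd2 they were Prelid1 and Spcs2 (0.996 each) and Tmem138 (0.994). For Fads2 they were Insig1 (0.983), Slc16a3 (0.981) and Lss (0.975). Within the set, r was 0.943 between Scd1 and Fads2, 0.934 between Fads2 and Elovl6 and -0.03 between Scd1 and Elovl5. These 8 points share the same arrays and are given as a description.

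The SREBP genes themselves gave no call, and their levels in DKO cells were higher with the high dose. Srebf1, the SREBP gene tied to fatty acid synthesis, had means of 95.2, 109, 127 and 137 in WT cells from day 0 to 10 ng/ml and of 93.2, 97.7, 82.2 and 144 in DKO cells. Srebf2, tied to cholesterol synthesis, had 332, 392, 406 and 412 in WT and 326, 312, 318 and 494 in DKO cells. Neither passed in any of the 5 tested contrasts, and at day 4 both had all DKO arrays at 10 ng/ml above those at 2.2 ng/ml. Insig1, which retains SCAP and is itself an SREBP target, had 278, 615, 526 and 559 in WT and 239, 345, 266 and 685 in DKO cells. It rose 2.23-fold in WT cells at day 2 (adjusted p = 4.21e-05), had a log2 difference of 0.50 ± 0.20 in DKO cells (adjusted p = 0.0657) and was lower in DKO than WT cells at day 2 by 0.85 ± 0.20 on the log2 scale, a fall that passed (adjusted p = 0.0181).

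Of the 14 lipogenic regulators measured, 6 rose and 0 fell in WT cells at day 2, and 1 rose and 1 fell in DKO cells. Over all genes 19.7% rose and 20.5% fell in WT cells and 15.3% rose and 13.3% fell in DKO cells, and the counts of the lists below stand against the same shares. Pparg, a nuclear receptor of lipid storage that TH2 cells also use, went from 15.2 ± 1.82 to 73.0 ± 4.02 in WT cells and from 15.3 ± 1.76 to 16.7 ± 1.39 in DKO cells. Its interaction was -2.13 ± 0.20 (adjusted p = 2.67e-06). At 10 ng/ml it read 210 ± 14.2 in WT cells. In DKO cells at that dose it read 21.5 ± 2.88, below the middle of the array. Scd1, Scd2 and Fads2 were highest in that group, and a link between Pparg and these genes was not tested. Mid1ip1, which helps acetyl-CoA carboxylase to polymerise, rose by 1.87 ± 0.19 on the log2 scale in WT and by 0.96 ± 0.19 in DKO cells (adjusted p = 2.48e-08 and 0.000380) and was lower in DKO cells at day 2 (adjusted p = 0.00349). Mbtps1, a protease that releases SREBP, fell by 0.61 ± 0.15 in DKO cells (adjusted p = 0.00337).

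Cholesterol synthesis and uptake, is the other arm of the SREBP programme. Of 14 genes, 13 rose in WT and 12 in DKO cells at day 2, where 19.7% and 15.3% of all genes rose, and the medians were 1.94 and 1.45 on the log2 scale. Idi1, which isomerises isopentenyl diphosphate, rose most in both, by 3.05 ± 0.22 in WT and 2.66 ± 0.22 in DKO cells (adjusted p = 4.77e-11 and 8.12e-10). Cyp51, a sterol demethylase, rose by 2.59 ± 0.14 in WT cells, and Fdps, which makes farnesyl diphosphate, by 2.11 ± 0.24 in DKO cells. At day 2, Cyp51 and Hmgcs1 were lower in DKO than WT cells (by 0.67 ± 0.14 and 0.55 ± 0.13 on the log2 scale, adjusted p = 0.00763 and 0.0216). Hmgcs1, which makes the HMG-CoA that feeds the pathway, was the 1 gene of the list called in the interaction (-0.78 ± 0.19, adjusted p = 0.0416). At day 4 all 14 were higher at 10 than at 2.2 ng/ml in DKO cells with no overlap (13.1% of all genes were), with a median of 1.42, and in WT cells 3 were higher and 2 lower with a median of -0.09. At 2.2 ng/ml 13 of the 14 had all DKO arrays below all WT arrays (8.18% of all genes did), and at 10 ng/ml 13 had them above (15.8% did).

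The elongases and desaturases work with partner enzymes. Of 9 genes of the elongation cycle and of electron transfer, 7 rose in WT cells, and 5 rose and 1 fell in DKO cells. Hsd17b12, the ketoreductase of the cycle, rose by 1.51 ± 0.20 in WT cells (adjusted p = 1.57e-06), and Hacd2, its dehydratase, by 1.36 ± 0.18 in DKO cells (adjusted p = 1.05e-06). Of the cytochrome b5 system, Cyb5b rose by 1.43 ± 0.15 in WT and 0.95 ± 0.15 in DKO cells. Cyb5r3 rose by 0.93 ± 0.19 in WT and 1.17 ± 0.19 in DKO cells. Cyb5a, which hands electrons to desaturases, was the 1 gene of this list called lower in DKO cells at day 2 (by 0.74 ± 0.16, adjusted p = 0.00952). Of 10 relatives of the desaturases and elongases, a list that includes Acacb, which is neither, 0 rose and 3 fell in WT cells, and 1 rose and 3 fell in DKO cells. Scd3, Scd4, Elovl2, Elovl3, Elovl4 and Acacb had group means below the middle of the array in every group. Their changes, or the lack of them, are therefore bounded by a dim signal. Elovl7 fell by 2.46 ± 0.26 in each genotype and Degs2, a sphingolipid desaturase, fell by 1.13 ± 0.21 in WT and 0.97 ± 0.21 in DKO cells. Degs1, which makes ceramide, was lower in DKO cells at day 2 by 0.79 ± 0.17 (adjusted p = 0.00703).

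The supply of carbon and NADPH was mixed. Of 8 genes, 3 rose and 1 fell in WT cells, and 2 rose and 1 fell in DKO cells. Slc25a1, which exports citrate from mitochondria, rose by 1.72 ± 0.18 in WT and 1.53 ± 0.18 in DKO cells, and at day 4 it was higher at 10 ng/ml in both, by 1.28 ± 0.18 and 1.55 ± 0.18. Acss2, which makes acetyl-CoA from acetate, fell in both genotypes, by 1.53 ± 0.19 in WT and 1.28 ± 0.19 in DKO cells (adjusted p = 3.15e-07 and 5.98e-06). Pgd, an NADPH source, rose by 1.62 ± 0.19 in WT cells and was lower in DKO cells at day 2 by 0.69 ± 0.19 (adjusted p = 0.0438).

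Of 15 genes that activate fatty acids or build glycerolipids, 9 rose and 1 fell in WT cells, and 2 rose and 2 fell in DKO cells. Agpat5, an acyltransferase, rose by 1.58 ± 0.16 in WT and 1.07 ± 0.16 in DKO cells, and Acsl5, an acyl-CoA synthetase, by 0.69 ± 0.12 in DKO cells. Acsl4, a synthetase that prefers arachidonate, rose by 1.32 ± 0.17 in WT cells and had 0.26 ± 0.17 in DKO cells (adjusted p = 0.293), with an interaction of -1.06 ± 0.24 (adjusted p = 0.0260). Acsl4 and Lpin2, a phosphatidate phosphatase, were lower in DKO cells at day 2 (adjusted p = 0.00116 and 0.0269).

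Fatty acid oxidation is the opposing route. Of its 13 genes, 7 rose and 0 fell in WT cells, and 6 rose and 2 fell in DKO cells. Acadl, a long-chain acyl-CoA dehydrogenase, rose by 2.98 ± 0.23 in WT and 1.72 ± 0.23 in DKO cells, and was lower in DKO cells at day 2 by 1.21 ± 0.23 (adjusted p = 0.00272). Decr1, an auxiliary enzyme for unsaturated chains, rose by 0.77 ± 0.17 in DKO cells. Cpt2, the inner-membrane carnitine transferase, had an interaction of -0.97 ± 0.20 (adjusted p = 0.0154) and was the 1 gene of these lists that differed in naive cells, higher in DKO cells by 0.75 ± 0.14 (adjusted p = 0.0376). Cpt1a, the outer-membrane transferase, was lower in DKO cells at day 2 by 0.64 ± 0.17 (adjusted p = 0.0410).

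**Figure D4:**
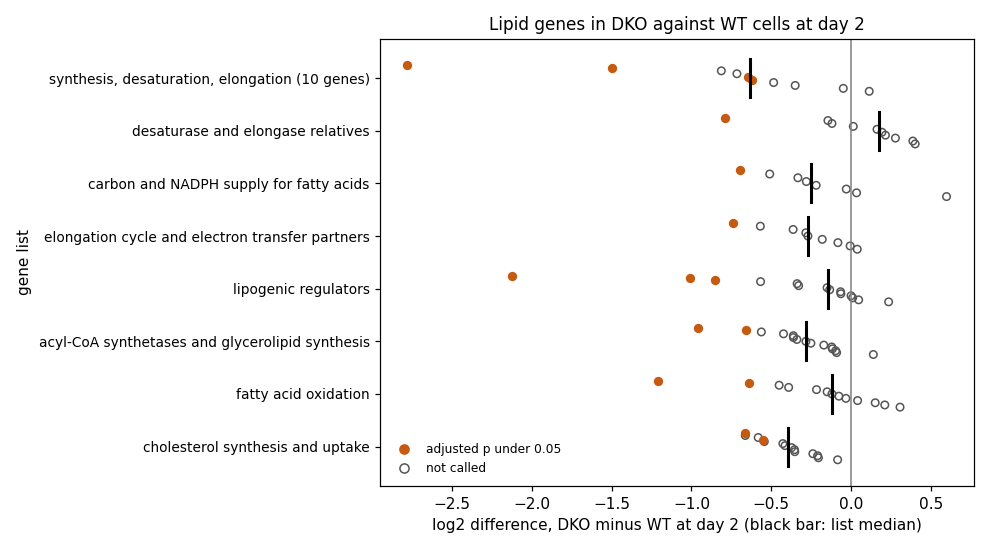
Log2 difference between DKO and WT cells at day 2 (horizontal) for every measured gene of the 10-gene set and of 7 lists of related genes (vertical); points are genes, filled where adjusted p is under 0.05, and black bars are list medians. The 10-gene set has its median at -0.64, the cholesterol genes at -0.39, and the relatives of the desaturases and elongases at 0.18. Several of these relatives were below the middle of the array in every group.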

How the data were processed

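RNA of 24 samples (8 groups of 3) was hybridised to Affymetrix mouse gene arrays. The deposited intensities come from RMA, which the authors ran and which corrects background, quantile-normalizes and summarises probes, per the submitters' processing notes. Software versions and build: not given in the sources used here. Log2 was taken. RMA removes a change shared by most genes, and background compresses folds of dim genes. Of 35556 probe sets, 21789 had 1 listed gene symbol; the others were left out. The brightest was kept per gene, leaving 19938 genes.

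Using limma 3.58.1 in R 4.3.3, 8 group means were fitted to 24 arrays (16 residual and 7.49 prior degrees of freedom). Benjamini-Hochberg adjustment ran over all genes of a contrast, with under 0.05 called, and 5 contrasts of days 0 and 2 were tested. A fold is a ratio of geometric means. The procedure was tested on data simulated for DKO against WT cells at day 2. It recovered 10 of 50 changes of 0.5 on the log2 scale and 47 of 50 changes of 1, so small changes may be missed. The number of arrays, 3 per group, limits the precision. Array medians were 26.4 to 31.6. No batch is given.

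The members, gene lists and contrasts were chosen with earlier results of these data known. Named genes are all members, Batf, Batf3, Irf4, Srebf1, Srebf2 and Insig1, up to 2 called genes with the largest change per list and tested contrast, and the 3 genes most alike to each of the 3 members of widest range. Scd3, Scd4, Elovl2, Elovl3, Elovl4, Acacb, Cd79a, Cd79b, Ms4a1, Cd3d, Cd3g, Cd8b1 and Klrb1c were named after their values were seen. Alternatives were 2 further normalizations, a filter on dim genes, 2 treatments of several probe sets, array weights, a trended robust variance, a replicate block, the compared groups alone, and leaving out single arrays or a pair that stands apart.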

Additional observations from a re-analysis of the deposited data

Results flagged for a closer look

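The response from day 0 to day 2 differed between the genotypes for 6 of the genes named, by the interaction test of limma. The DKO response was lower for Scd1 (log2 difference of responses -2.80, adjusted p = 0.0182), Fasn (-0.76, adjusted p = 0.0192), Pparg (-2.13, adjusted p = 2.67e-06), Acsl4 (-1.06, adjusted p = 0.0260), Cpt2 (-0.97, adjusted p = 0.0154) and Hmgcs1 (-0.78, adjusted p = 0.0416). For Cpt2 the naive cells already differed, with a higher level in DKO cells. The Scd1 and Fasn calls were lost in a limma fit of the compared groups alone (adjusted p = 0.0887 and 0.0638) and without some single arrays. Pparg, Acsl4, Cpt2 and Hmgcs1 were not put through the alternative settings.

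Between the doses at day 4, Acaca, Fasn and Elovl5 moved in opposite directions in the genotypes. In WT cells all 3 arrays at 10 ng/ml were below those at 2.2 ng/ml, and in DKO cells all 3 were above. The DKO dose difference exceeded the WT one by 1.32 for Acaca, 0.90 for Elovl5 and 0.78 for Fasn on the log2 scale, and this difference was not tested because the genes were chosen by the dose effect.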

How the results depend on the processing

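The 50 tested gene values are those of 10 genes in 5 contrasts. Across all settings the sign turned 21 times, 0 of them in a value called in either fit. Over the settings other than left-out arrays, 467 of 480 values kept their side of the threshold, 8 lost a call and 5 gained one. With 1 array left out, 341 of 360 did, 14 lost a call and 5 gained one. Fitted on the compared groups alone, 2 genes in place of 4 were called lower in DKO cells at day 2, and 0 in place of 2 in the interaction, with fewer residual degrees of freedom. A further cyclic loess or quantile normalization left 1 call in the interaction, Scd1, and the cause was not tested. The same scalings shifted the median of all genes at day 2 in WT cells by 0.14 (log2), and Fads3 was then called higher (adjusted p = 0.0327 and 0.0474); under quantile normalization Scd1 was called higher at day 2 in DKO cells (adjusted p = 0.0438) and Acaca lost its call at day 2 (0.0725). Leaving out 1 array, the calls in DKO against WT cells at day 2 ran from 2 to 4 and in the interaction from 0 to 3, at day 2 against day 0 from 9 to 10 in WT and 7 to 8 in DKO cells, and in naive cells stayed at 0. The median dose difference ran from -0.15 to 0.0400 in WT cells, turning sign without the first (0.0400) or the second (0.00868) WT array at 2.2 ng/ml, and from 0.64 to 0.79 in DKO cells.

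The replicate number as a block gave 5 calls in place of 4 in DKO against WT cells at day 2, adding Scd2 (adjusted p = 0.0485), and changed no other call. Deviations of same-numbered arrays from their group means correlated between -0.05 and 0.26 over 6 pairs of groups, and every array matched its own number best in 1 pair of groups, the WT doses, so the numbers were not taken to pair the samples. In the WT doses these correlations were 0.05 to 0.26. A pairing there is possible, and the SEs given for the WT dose difference take no account of it. With 3 arrays per group, intensity close to the middle of the array limits Fads3 throughout and Scd1 and Fads2 in naive cells and in DKO cells at 2.2 ng/ml.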
